A study of Drosophila melanogaster with 16 samples.

Results

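The Mediator and Integrator complexes, 2 large assemblies that act on RNA polymerase II, were examined subunit by subunit in type I neuroblasts (NBs), which are stem cells of the fly larva's brain that divide asymmetrically, and in ganglion mother cells (GMCs), their smaller daughters. The subunits were chosen by their symbols. Every gene whose current symbol in the deposited tables begins with MED or IntS and a number was taken, together with kto, skd, Cdk8 and CycC, the subunits of the Mediator kinase module. This gave 40 of the 16364 genes, of which 29 belong to Mediator and 11 to Integrator. Of the 40, 39 had enough counts to be tested, and the remaining one, MED9, had a count of 0 in all 16 libraries.

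Mediator joins transcription factors bound at enhancers to the polymerase at the promoter. Its head and middle modules touch the polymerase, its tail receives activators, MED14 holds these parts together, and a kinase module that can dock on the core modifies its activity. Integrator binds polymerase that has paused just downstream of the promoter, cuts the nascent RNA with an endonuclease and carries protein phosphatase PP2A to the elongation machinery, and it also forms the ends of small nuclear RNAs. In Drosophila brain stem cells, Mediator is known to act with the ecdysone receptor at the end of proliferation, and Integrator is known to keep intermediate progenitors of type II lineages from reverting to stem cells.

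All cells came from flies that carried UAS-dcr2, the driver ase-GAL4 and UAS-stinger::GFP, a nuclear GFP, on an otherwise wild-type background, so NBs and GMCs share the driver, the Dicer transgene and the marker. NBs were sorted from brains of larvae at the wandering stage of the third instar, kept in culture for 1.5, 3 or 5 h while they divided, and sorted again to part them from the GMCs that had formed. There were 3, 2 and 2 GMC libraries and 3, 3 and 3 NB libraries of 1.5, 3 and 5 h. The ase promoter drives GAL4, so the marker labels cells that use or have inherited its activity and not other cells of the brain.

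The libraries held 6899670 to 21207182 counts on genes, of which 17957 to 71720 (0.229% to 0.359%) fell on the 40 subunits. Whether replicates are separate cultures is not in the labels, and p-values here measure the spread between libraries alone, be it technical or not. The file names give a different flow cell for each age, so age and run cannot be told apart, whereas GMCs and NBs of one age share a run. The summed level of 5 GMC markers (pros, nerfin-1, dap, tap and ham) lay between 3596 and 8907 CPM in GMC libraries, against 544 and 1279 CPM in NB libraries. The summed level of 6 NB markers (dpn, wor, klu, mira, ase and grh) overlapped, at 2063 to 3746 CPM in GMCs and 2150 to 4167 CPM in NBs. All 6 neuron markers (elav, brp, nSyb, Syt1, nrv3 and Rdl) were detected, with sums of 780.4 to 925 CPM, 1028 to 1239 CPM and 5185 to 5322 CPM in GMCs of 1.5, 3 and 5 h, against 198 to 311 CPM, 235 to 329 CPM and 363 to 651 CPM in NBs. Glia markers summed to at most 39.6 CPM in GMCs and 14.99 CPM in NBs, and hemocyte and fat body markers to at most 69.1 CPM in GMCs and 85.1 CPM in NBs. CPM scales the counts of each library to a common depth, here with TMM library sizes.

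At every age the replicate 1 NB library had lower levels of many long transcripts than the other NB libraries. It also had a larger share of reads in no gene. Several subunits were among the genes lowest in these libraries. MED21, which with MED7 forms the hinge of the middle module, had 6.52, 33.4 and 26.9 CPM in the NB libraries of 1.5 h, 6.78, 27.4 and 31.2 CPM in those of 3 h and 6.35, 15.2 and 13.9 CPM in those of 5 h, replicate 1 first. Its replicate 1 level was 0.216, 0.232 and 0.438 times the mean of the other NB libraries at 1.5, 3 and 5 h, the second lowest mean deviation (rank 2) of the 10913 genes tested. MED23, kto and MED26 followed at ranks 25, 33 and 36, so 4 subunits stood among the 50 lowest genes. The 6 subunits MED21, MED23, MED26, IntS3, IntS1 and MED1 were below 0.7 times the other libraries at every age. All 13 subunits with more than 3000 exonic bases were lower in replicate 1 at every age. Over the 39 subunits the deviation, averaged over the 3 libraries, had a Spearman correlation of -0.81 with exon length. Over 10858 genes the deviations in each single library had correlations of -0.385, -0.305 and -0.325 at 1.5, 3 and 5 h. Replicate 1 of the GMCs also had negative ones, of -0.19, -0.14 and -0.37. A mean over libraries and a single library are unlike measures, so the value of the subunits cannot be set against those of all genes. The share of reads in no gene was 12.3% to 17.7% in the 3 NB libraries of replicate 1 and 9.20% to 13.5% in the other 6 NB libraries. These ranges overlap over the ages, but within each age replicate 1 had the largest share. On the first principal component of all genes (32.3% of the variance), NB replicate 1 of 5 h lay at -38.7, among the 3 h libraries, while the other NB libraries of 5 h lay at 79.0 and 66.1 and the GMC libraries of 5 h at 65.1 and 68.2. Without that library 13 subunits were again called between GMCs and NBs of 5 h, beside 29.5% of all genes. The calls below use all libraries, and values with NB replicates 2 and 3 only stand beside those that differ.

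**Figure D1:**
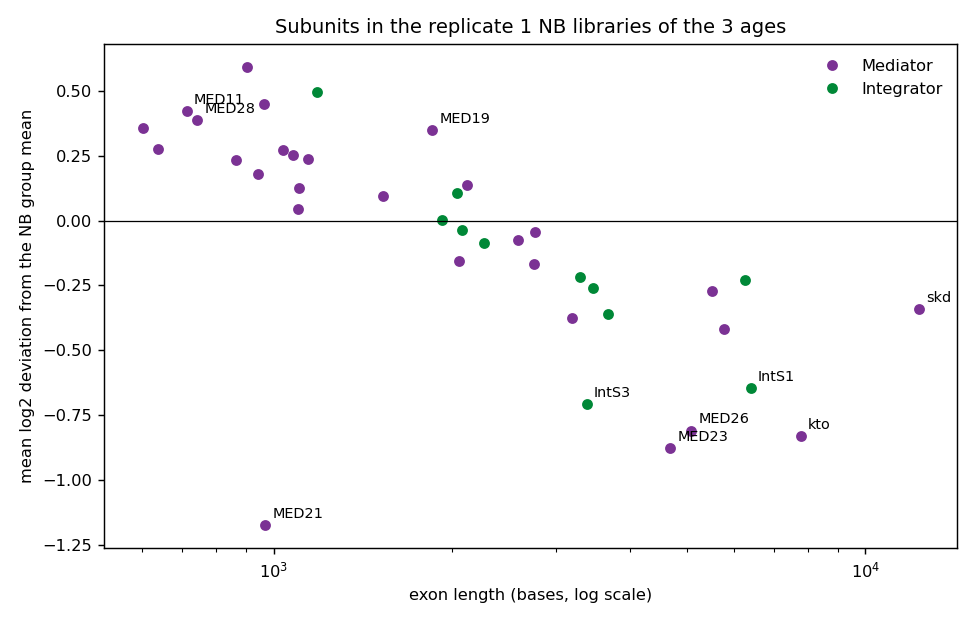
Each point is a tested subunit of Mediator (purple) or Integrator (green), placed by its exon length in bases (log axis) and by its mean log2 deviation in the 3 replicate 1 NB libraries from the mean of its NB group. MED21, MED23, kto and MED26 lie lowest, subunits over 3000 bases all lie below 0, and short subunits such as MED11 and MED28 lie above it.

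In the mean of the 3 ages most Mediator subunits had values above 0 and most Integrator subunits values below 0, though few passed the test and at 5 h 7 of the 11 Integrator subunits were above 0. The mean of the 3 within-age differences, which uses all 16 libraries, called 10 subunits higher and 3 lower in GMCs than in NBs among the 39 tested (edgeR quasi-likelihood test, Benjamini-Hochberg adjusted p under 0.05 over all genes). This is 33.3% of the subunits, beside 41.7% of all genes tested (21.2% higher and 20.5% lower), so subunits were not called more often than other genes. Among these subunits, chosen by symbol, every call in Mediator was higher and every call in Integrator was lower in this fit. The split did not hold under every alternative. Mediator had 1 lower call with median-ratio scaling, by DESeq2 and with a replicate block, and 2 with NB replicates 2 and 3 only. Integrator had 1 higher call with a replicate block and 1 with the length trend removed. Of Integrator subunits under other symbols, omd was called higher and asun lower. Of 28 tested Mediator subunits 10 were higher (35.7%), 0 were lower and 24 had a value above 0, with a median log2 fold change of 0.29. Of 11 Integrator subunits 0 were higher, 3 were lower (27.3%, beside 20.5% of all genes) and 4 had a value above 0, with a median of -0.14. The median of all genes was 0.00. Under 7 other scalings, filters, tools and models the median lay between 0.26 and 0.31 for Mediator and between -0.20 and -0.03 for Integrator, the last with the length trend removed. With NB replicates 2 and 3 only, 14 subunits were higher and 7 lower, beside 51.3% of all genes, and MED23 and IntS3, both low in replicate 1, passed as lower (-0.35, adjusted p = 0.00703, and -0.44, adjusted p = 0.00967, by edgeR). In bulk libraries such as these, fewer cells of a type and less RNA per cell cannot be told apart.

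**Figure D2:**
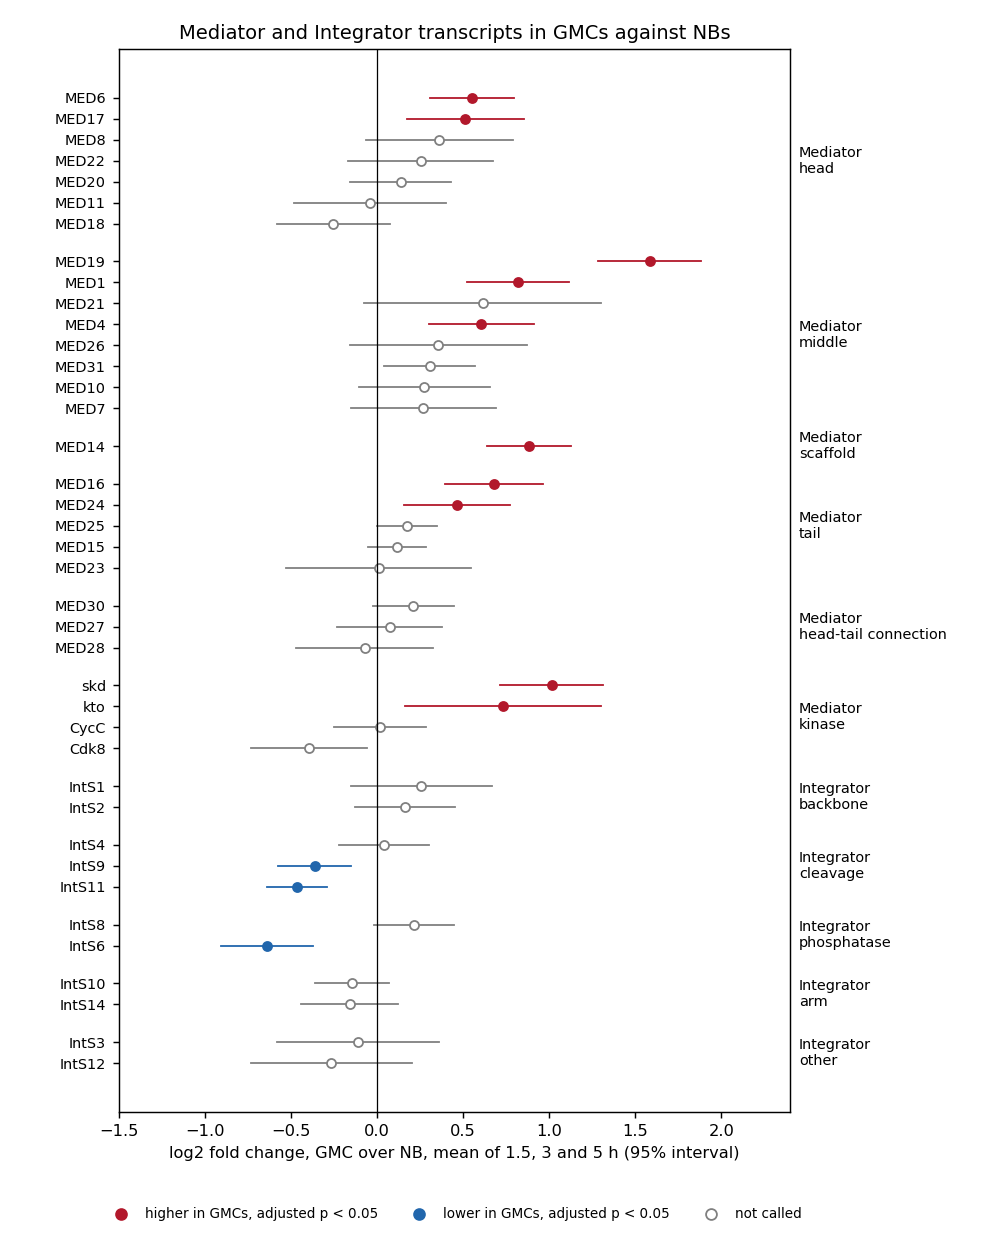
Log2 fold change of GMCs over NBs, as the mean of the differences at 1.5, 3 and 5 h, for the 39 tested subunits, grouped by module, with 95% intervals. Filled red points are the 10 subunits higher in GMCs and filled blue points the 3 lower at an adjusted p under 0.05; MED19 at 1.58 and IntS6 at -0.64 lie at the ends.

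Of the CPM on both complexes, Mediator took a larger and Integrator a smaller share in every GMC library than in any NB library. Mediator transcripts summed to 2228 to 3969 CPM in the 7 GMC libraries and to 1491 to 2365 CPM in the 9 NB libraries. At 3 and 5 h every GMC sum was above every NB sum, and at 1.5 h the cell types overlapped (2228 to 2543 CPM in GMCs, against 1704 to 2365 CPM in NBs). Integrator transcripts summed to 634 to 923 CPM in GMCs and 619 to 1068 CPM in NBs, ranges that overlap. Integrator took 18.9% to 23.2% of the CPM on both complexes in GMC libraries, against 27.8% to 33.3% in NB libraries, with no overlap at any age. The replicate 1 NB libraries had shares of 30.5%, 29.3% and 29.4% at 1.5, 3 and 5 h, above the other NB libraries of their age at 1.5 and 3 h, below them at 5 h, and above every GMC library. By age the share averaged 22.4 ± 0.679%, 19.4 ± 0.265% and 20.3 ± 1.999% in GMCs of 1.5, 3 and 5 h, against 29.8 ± 0.867%, 28.4 ± 0.818% and 31.6 ± 1.98% in NBs (SD). A sum of CPM weighs long and abundant transcripts most, and no test was run on it.

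**Figure D3:**
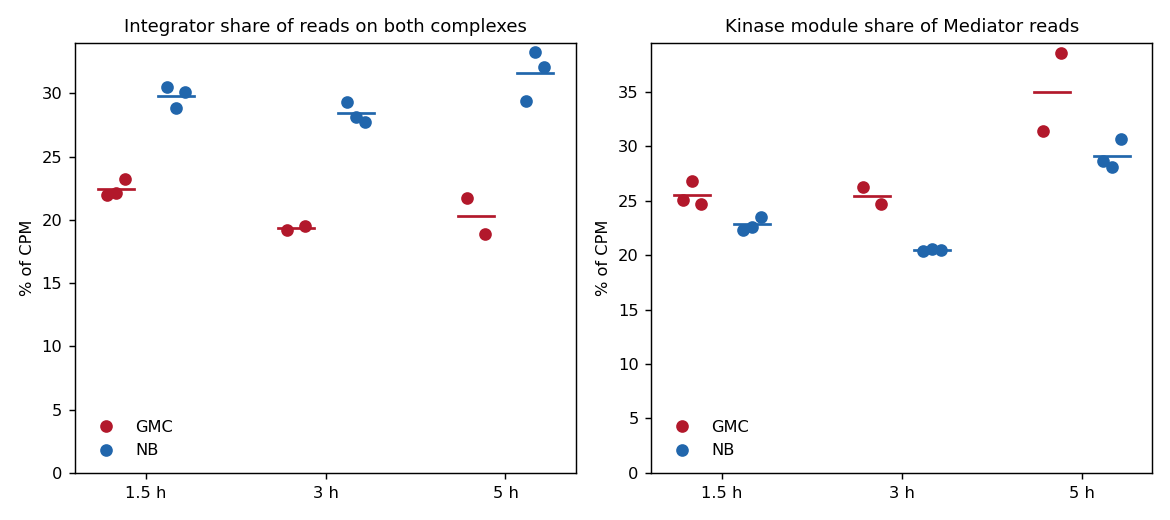
Left, Integrator share of the CPM on both complexes, and right, kinase module share of the CPM on Mediator, in percent, for each library (points) and group mean (lines) at 1.5, 3 and 5 h. The GMC libraries lie at 18.9% to 23.2% on the left, all below the NB libraries at 27.8% to 33.3%; on the right GMC libraries lie above the NB libraries of their age.

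MED19 differed most of all subunits and was called at every age. MED19 (FBgn0036761, 3L 17843725 to 17846501, minus strand) is a middle module subunit that in Drosophila binds Hox proteins. In GMCs it had 151, 120.4 and 141 CPM at 1.5 h, 186 and 181 CPM at 3 h and 118 and 132 CPM at 5 h. In NBs it had 69.1, 59.2 and 40.03 CPM at 1.5 h, 78.2, 41.8 and 43.5 CPM at 3 h and 42.1, 35.4 and 38.3 CPM at 5 h. The lowest GMC library lay above the highest NB library over all 3 ages, which held for MED19 alone among the subunits and for 2.79% of all genes. The log2 fold change was 1.29 at 1.5 h, 1.76 at 3 h and 1.70 at 5 h (edgeR adjusted p = 0.00123, 0.000174 and 0.000109). The mean of the ages was 1.58 ± 0.142 (SE), a 2.99-fold difference (edgeR adjusted p = 2.6e-07). Over all genes, 6.83% were called at all 3 ages.

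The other 7 tested subunits of the middle module also had values above 0 in the mean of the ages, and MED1 and MED4 passed. MED1 (FBgn0037109, 3L 21628325 to 21634446, minus strand), which in mammals is the subunit that nuclear receptors bind, had 139, 117 and 159 CPM at 1.5 h, 142 and 136 CPM at 3 h and 238 and 279.8 CPM at 5 h in GMCs. NBs had 71.7, 119.5 and 108 CPM, 49.8, 74.8 and 85.1 CPM and 99.6, 157 and 134 CPM of MED1 at those ages. The groups overlapped at 1.5 h, where 1 NB library exceeded 1 GMC library, and were apart at 3 and 5 h. MED1 was higher in GMCs than in NBs by 0.82 ± 0.14 (SE, log2) in the mean of the ages (edgeR adjusted p = 0.000176). With NB replicates 2 and 3 only the difference was 0.59 (edgeR adjusted p = 3.44e-05). MED4 (FBgn0035754, 3L 7249529 to 7250527, minus strand) is a core subunit of the module. Its GMC libraries had 21.9, 16.1 and 20.9 CPM at 1.5 h, 23.4 and 20.6 CPM at 3 h and 15.8 and 14.95 CPM at 5 h, and its NB libraries 17.6, 14.3 and 13.7 CPM, 17.3, 9.43 and 12.2 CPM and 8.74, 9.93 and 9.98 CPM. The groups of MED4 overlapped at 1.5 h only. Its mean log2 fold change was 0.61 ± 0.144 (edgeR adjusted p = 0.00278), and at 3 h alone it passed narrowly (0.76, edgeR adjusted p = 0.0453), a call lost under 7 alternatives, such as scaling without CR43283, an abundant non-coding RNA.

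The remaining middle subunits did not pass in any comparison of the cell types. MED31, MED10 and MED7 had mean log2 fold changes of 0.31 (95% interval 0.04 to 0.57, edgeR adjusted p = 0.0597), 0.28 (-0.10 to 0.65) and 0.27 (-0.15 to 0.69). MED26, which in mammals brings elongation factors to the polymerase, had 0.36 (-0.15 to 0.87) with all libraries and 0.00 with NB replicates 2 and 3 only. MED21 had 0.61 (-0.07 to 1.30) with all libraries and 0.18 without replicate 1. MED21 shares 26.6% of its exonic bases with Set1 on the opposite strand, and MED26 is the 1 subunit on chromosome 4. MED7 and MED10 passed with NB replicates 2 and 3 only (0.59, adjusted p = 0.000209, and 0.40, adjusted p = 0.0328, by edgeR).

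MED14 (FBgn0035145, 3L 593246 to 599239, plus strand), the backbone on which head, middle and tail are hung, was among the subunits with the largest excess in GMCs over NBs. It had 186, 206 and 241 CPM in GMCs of 1.5 h, against 131, 193 and 179.8 CPM in NBs. At 3 h it had 229 and 246 CPM in GMCs and 94.9, 117 and 144 CPM in NBs. At 5 h it had 483 and 574 CPM in GMCs and 187, 241 and 211 CPM in NBs. The cell types overlapped at 1.5 h and were apart at 3 and 5 h. Its log2 fold change was 0.33, 1.00 and 1.31 at 1.5, 3 and 5 h (edgeR adjusted p = 0.256, 0.00241 and 0.000159). The mean was 0.88 ± 0.115 (SE; edgeR adjusted p = 1.31e-05).

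In the head module, which holds the contacts to the polymerase, MED6 and MED17 were higher in GMCs and the other 5 subunits did not pass. MED6 (FBgn0024330, 3R 9766031 to 9768984, minus strand) had 54.3, 50.04 and 45.5 CPM in GMCs of 1.5 h, against 44.6, 40.9 and 35.8 CPM in NBs. At 3 h GMCs had 48.98 and 53.03 CPM and NBs 49.04, 27.99 and 35.5 CPM, and at 5 h GMCs had 70.2 and 70.2 CPM and NBs 33.4, 40.2 and 38.8 CPM. The 2 cell types were apart at 1.5 and 5 h, and at 3 h 1 NB library, replicate 1, lay inside the GMC range. Its mean log2 fold change was 0.55 ± 0.116 (edgeR adjusted p = 0.001). MED6 shares 16.3% of its exonic bases with other genes, and the sources used here do not say whether counting used strand. MED17 (FBgn0038578, 3R 18189072 to 18191265, plus strand), the core of the head, had 60.3, 72.1 and 64.3 CPM in GMCs of 1.5 h and 60.1, 51.4 and 60.9 CPM in NBs. At 3 h it had 64.6 and 57.4 CPM in GMCs and 51.5, 42.2 and 38.9 CPM in NBs, and at 5 h 57.2 and 76.8 CPM in GMCs and 19.5, 54.5 and 34.8 CPM in NBs. The groups overlapped at 1.5 h and were apart at 3 and 5 h. MED17 averaged 0.51 ± 0.162 (edgeR adjusted p = 0.017), and lost the call without GMC replicate 1 of 3 h (adjusted p = 0.0543) or GMC replicate 2 of 5 h (adjusted p = 0.0804). MED8, MED22, MED20, MED11 and MED18 ranged between -0.25 (MED18) and 0.36 (MED8). MED8 and MED22 passed with NB replicates 2 and 3 only (0.59, adjusted p = 0.00216, and 0.43, adjusted p = 0.0279, by edgeR). The subunits that join head and tail, MED27, MED28 and MED30, lay between -0.07 and 0.21 in the mean, and MED30 was called at 5 h only (0.68, edgeR adjusted p = 0.0166).

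In the tail, where activators bind, none of the 5 subunits was called at 1.5 or 3 h, and MED16, MED24, MED25 and MED15 were called higher in GMCs at 5 h. MED16 (FBgn0034707, 2R 22183138 to 22185892, plus strand) had 31.2, 50.5 and 50.3 CPM in GMCs of 1.5 h and 39.1, 35.7 and 38.1 CPM in NBs, with 1 GMC library below all NB libraries. It had 33.9 and 44.9 CPM in GMCs of 3 h, against 27.01, 30.2 and 28.7 CPM in NBs, and 69.9 and 66.9 CPM in GMCs of 5 h, against 18.5, 31.3 and 30.5 CPM in NBs. The groups were apart at 3 and 5 h. The mean log2 fold change of MED16 was 0.68 ± 0.134 (edgeR adjusted p = 0.000613), and the 5 h value alone was 1.35 (adjusted p = 0.000481). MED24 (FBgn0035851, 3L 8191270 to 8196573, plus strand), a tail subunit that lies beside MED16 and MED23, had 49.7, 57.6 and 72.5 CPM in GMCs of 1.5 h and 53.7, 62.4 and 70.97 CPM in NBs, which overlap. At 3 h GMCs had 59.3 and 73.96 CPM and NBs 28.9, 57.6 and 61.6 CPM, also overlapping, and at 5 h GMCs had 161 and 165 CPM and NBs 67.7, 89.5 and 84.5 CPM, which are apart. Its mean was 0.46 ± 0.146 (edgeR adjusted p = 0.017), with adjusted p = 0.0748 without GMC replicate 3 of 1.5 h and 0.0754 without GMC replicate 2 of 3 h, and 0.26 with NB replicates 2 and 3 only (adjusted p = 0.0383). MED25, a target of activators in mammals, averaged 59.5 ± 0.149 CPM in GMCs of 5 h (SD, n = 2) and 35.2 ± 2.38 CPM in NBs (n = 3), and rose by 0.76 (edgeR adjusted p = 0.00109). MED15, which in other animals binds sterol-responsive factors, had 134 ± 13.4 CPM in GMCs (n = 2) and 97.6 ± 5.48 CPM in NBs (n = 3) at 5 h, and rose by 0.45 (edgeR adjusted p = 0.0241). Neither passed in the mean of the ages (0.18 and 0.12). MED23 was close to 0 with all libraries (0.01, 95% interval -0.53 to 0.55).

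**Figure D4:**
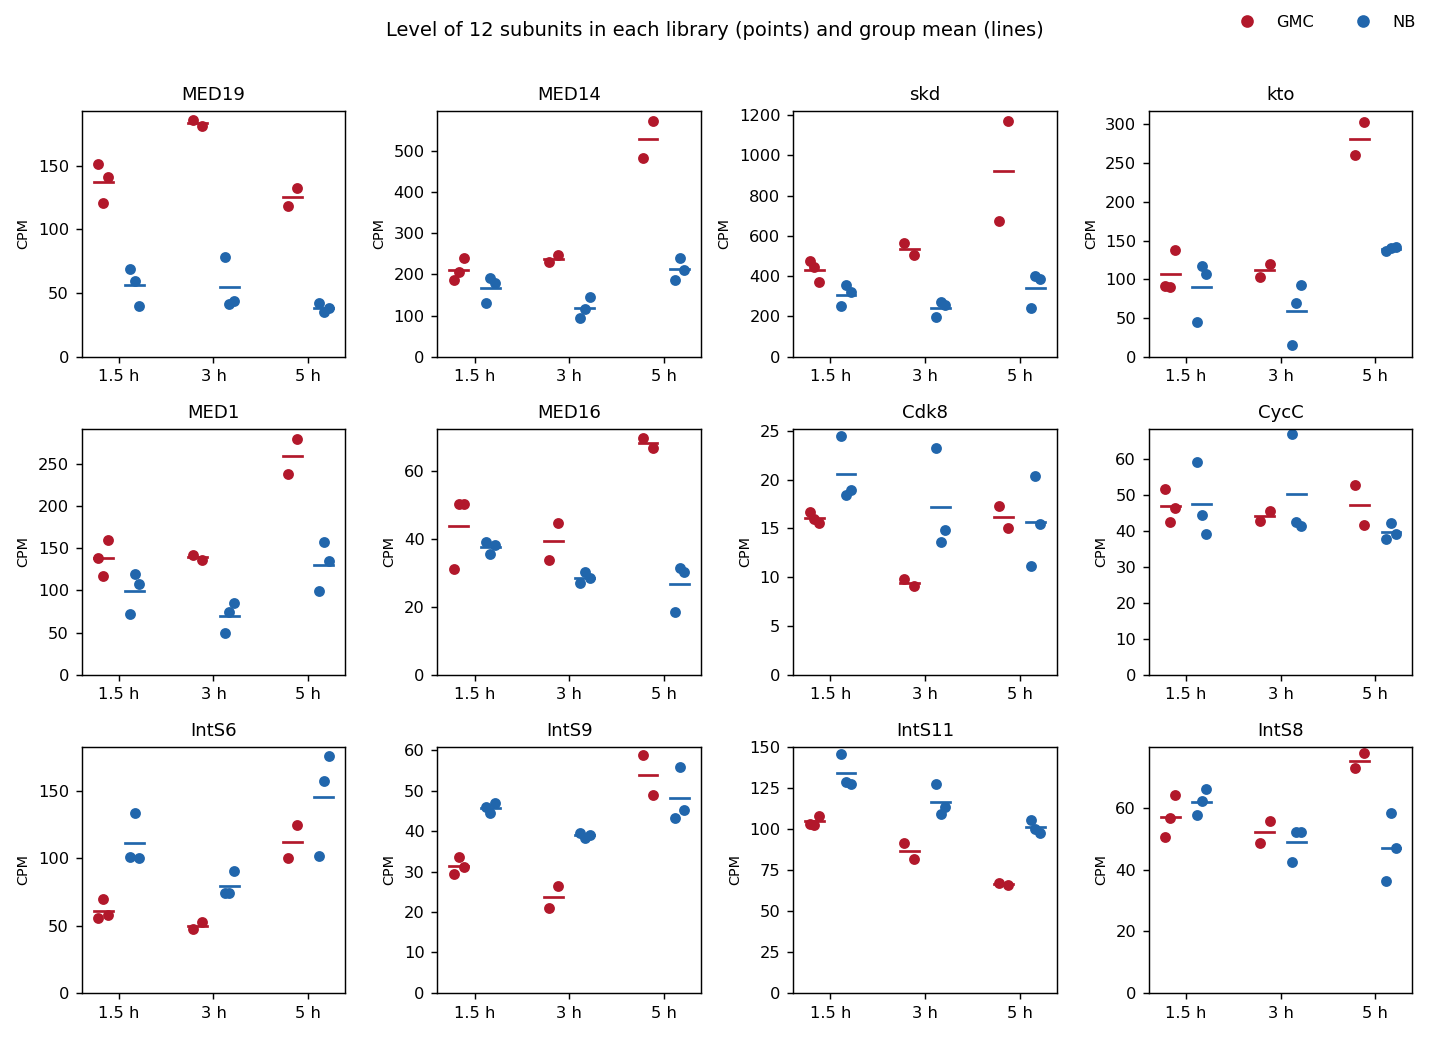
CPM of 12 subunits in each library (points), with group means (lines), GMC in red to the left of NB in blue at 1.5, 3 and 5 h; each panel starts at 0 and has its own scale. MED19 separates the cell types at every age, MED14, MED16 and skd separate them most at 5 h, CycC overlaps at every age, and IntS6, IntS9 and IntS11 are lower in GMCs at 1.5 and 3 h.

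The kinase module split into its large and its catalytic members. skd (FBgn0003415, 3L 20992814 to 21027434, minus strand), the Drosophila MED13 that ties the module to the core, and kto (FBgn0001324, 3L 19836614 to 19844944, plus strand), the MED12 that activates the kinase, act as a pair in fly eye and wing development, and both were higher in GMCs. Cdk8 and its partner cyclin CycC were not. For skd, GMCs had 476, 447 and 372 CPM at 1.5 h, 563 and 507 CPM at 3 h and 674 and 1172 CPM at 5 h. The NB libraries had 252, 355 and 321 CPM, 199, 274 and 259 CPM and 242, 399 and 386 CPM of skd. The cell types were apart at every age, and the 2 GMC libraries of 5 h differed most from each other. The log2 fold change of skd was 0.48, 1.13 and 1.43 by age, and its mean was 1.02 ± 0.141 (SE; edgeR adjusted p = 2.47e-05). With the trend of each library on exon length removed, the value for skd, the longest subunit transcript at 12307 exonic bases, was 0.59 and still passed.

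kto had 91.5, 90.1 and 137 CPM in GMCs of 1.5 h, against 45.2, 117 and 106 CPM in NBs. At 3 h it had 103 and 120.3 CPM in GMCs and 14.7, 68.99 and 92.04 CPM in NBs, and at 5 h 260.1 and 303 CPM in GMCs and 137, 140.1 and 141 CPM in NBs. The cell types overlapped at 1.5 h and were apart at 3 and 5 h, and replicate 1 was far below the other NB libraries at 1.5 and 3 h and close to them at 5 h. Its mean log2 fold change was 0.73 ± 0.269 with all libraries (edgeR adjusted p = 0.0383) and 0.42 with NB replicates 2 and 3 only (adjusted p = 0.00433). It did not pass with the length trend removed (0.49, adjusted p = 0.0942) or when any of 8 single libraries was left out (adjusted p = 0.0506 to 0.107), all 4 GMC libraries of 3 and 5 h among them.

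Cdk8 (FBgn0015618, 3L 9837080 to 9838670, minus strand), the kinase, had 16.7, 15.99 and 15.6 CPM in GMCs of 1.5 h and 24.4, 18.4 and 18.9 CPM in NBs. At 3 h it had 9.80 and 9.07 CPM in GMCs and 23.3, 13.6 and 14.9 CPM in NBs, and at 5 h 17.3 and 15.1 CPM in GMCs and 11.1, 20.4 and 15.5 CPM in NBs. It was below all NB libraries in all GMC libraries of 1.5 and 3 h and overlapped at 5 h. At 3 h it was lower in GMCs than in NBs by 0.87 (log2, edgeR adjusted p = 0.0465), a call that 7 alternatives lost. Its mean was -0.39 (95% interval -0.73 to -0.06, edgeR adjusted p = 0.0587). With NB replicates 2 and 3 only, the mean passed (-0.37, adjusted p = 0.0192). CycC (FBgn0004597, 3R 14889004 to 14890205, minus strand) had 51.8, 42.7 and 46.5 CPM in GMCs of 1.5 h, against 59.1, 44.5 and 39.3 CPM in NBs. At 3 h GMCs had 42.95 and 45.6 CPM and NBs 67.01, 42.5 and 41.4 CPM, and at 5 h GMCs had 52.9 and 41.8 CPM and NBs 37.9, 42.3 and 39.2 CPM. Its libraries overlapped at every age, and the mean difference of 0.02 had a 95% interval of -0.25 to 0.29. The 4 kinase module genes took 24.7% to 38.6% of Mediator CPM in GMC libraries and 20.4% to 30.7% in NB libraries. At each age every GMC library had the larger share.

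Of the Integrator subunits chosen by symbol, 3 were called in the mean of the ages. These, IntS6, IntS11 and IntS9, were all lower in GMCs. IntS11 (FBgn0039691, 3R 29745337 to 29747513, plus strand) is the RNA endonuclease and IntS9 (FBgn0036570, 3L 16103432 to 16105627, minus strand) its inactive partner in the cleavage module. IntS11 had 103, 103 and 108 CPM in GMCs of 1.5 h, 91.7 and 81.6 CPM in those of 3 h and 67.2 and 65.8 CPM in those of 5 h. NBs had 146, 129 and 127 CPM, 128, 109 and 114 CPM and 106, 100.3 and 97.7 CPM of IntS11. Every GMC library lay below every NB library of its age. IntS11 was lower in GMCs than in NBs by 0.46 ± 0.0815 (log2, SE, edgeR adjusted p = 0.00022) in the mean of the ages. Its call at 3 h was lost under 8 alternatives. A non-coding RNA on the opposite strand, asRNA:CR46109, covers 32.7% of its exonic bases. Without the strand and annotation of counting, it cannot be told which reads there were counted for IntS11 and which were set aside as ambiguous. IntS9 had 29.4, 33.6 and 31.2 CPM in GMCs of 1.5 h and 20.9 and 26.5 CPM in GMCs of 3 h, against 45.9, 44.5 and 46.8 CPM and 39.5, 38.2 and 39.1 CPM in NBs, with no overlap at either age. At 5 h the order ended, with 58.9 and 48.96 CPM in GMCs and 43.3, 55.8 and 45.2 CPM in NBs. Its log2 fold change was -0.54 at 1.5 h, -0.71 at 3 h and 0.16 at 5 h (edgeR adjusted p = 0.0243, 0.0108 and 0.514), the first lost under 5 alternatives, with a mean of -0.36 ± 0.0992 (adjusted p = 0.0074). IntS4, the scaffold of the cleavage module, had a mean of 0.04 (95% interval -0.22 to 0.30).

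IntS6 (FBgn0261383, X 5738663 to 5747254, minus strand), which with IntS8 brings PP2A to the complex, was lowest in GMCs relative to NBs of the Integrator subunits chosen by symbol. It had 55.6, 69.6 and 58 CPM in GMCs of 1.5 h, against 101, 134 and 100.4 CPM in NBs. At 3 h GMCs had 47.3 and 52.3 CPM and NBs 74.4, 73.9 and 90.5 CPM, and at 5 h GMCs had 100.1 and 125 CPM and NBs 102, 157 and 176 CPM. The cell types were apart at 1.5 and 3 h and overlapped at 5 h. Its log2 fold change was -0.87, -0.67 and -0.37 by age (edgeR adjusted p = 0.00624, 0.0446 and 0.231), the 3 h call lost under 6 alternatives, and its mean -0.64 ± 0.125 (adjusted p = 0.000577). The other phosphatase subunit, IntS8, went the other way at 5 h, with 73.1 and 77.8 CPM in GMCs and 36.2, 58.3 and 47.1 CPM in NBs (0.68, edgeR adjusted p = 0.0153), and its mean was 0.22 (adjusted p = 0.127). The backbone subunits IntS1 and IntS2 had means of 0.26 and 0.16, IntS10 and IntS14 of the arm had -0.14 and -0.16, and IntS3 and IntS12 had -0.11 and -0.26, none of which passed. IntS10 passed as lower with NB replicates 2 and 3 only (-0.23, edgeR adjusted p = 0.0339).

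By age, few subunits were called at 1.5 h and most at 5 h. At 1.5 h 1 subunit was higher (MED19) and 2 were lower (IntS6 and IntS9) in GMCs, 7.69% of the 39 beside 17.6% of all genes (8.59% higher and 8.97% lower). At 3 h 5 were higher (MED19, skd, MED14, MED1 and MED4) and 4 lower (IntS6, IntS9, IntS11 and Cdk8), 23.1% beside 20.7% (10.2% higher and 10.5% lower). At 5 h 12 were higher and 1 was lower, 33.3% beside 28.8% (14.8% higher). Calls at 5 h included 11 of 28 Mediator subunits, all higher, or 39.3% beside 14.8% of all genes called higher. Of the 39 subunits 17 (43.6%) were called at 1 age or more, beside 41.3% of all genes. The count at 3 h fell to 5 without NB replicate 3. The counts at 3 and 5 h also fell without single GMC libraries, which leaves 1 library in the group. Calls over all genes can fall as well when a library is left out. At 1.5 h they went from 17.6% to 10.6% of all genes without NB replicate 1 of 1.5 h. Such falls are therefore not a trait of the subunits alone. With NB replicates 2 and 3 only, the counts were 8, 12 and 15 at 1.5, 3 and 5 h, beside 28.3%, 30.6% and 37.3% of all genes. Over all genes, calls at 3 h were 1110 higher and 1145 lower, and 932 and 1449 when scaled without CR43283, which moved the median of all genes by -0.11 at 3 h.

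Libraries of the cell types did not overlap for 11, 17 and 21 of the 39 subunits at 1.5, 3 and 5 h, or 28.2%, 43.6% and 53.8%, beside 42.6%, 50.1% and 47.9% of all genes. Mediator had a median log2 fold change of 0.18 at 1.5 h, 0.16 at 3 h and 0.56 at 5 h, beside 0.04, 0.07 and -0.12 for all genes. At 5 h 26 of its 28 subunits were above 0, and 19 had every GMC library above every NB library, 67.9% of them beside 24.8% of all genes. Integrator had medians of -0.28, -0.16 and 0.03, and at 1.5 h 0 of its 11 subunits had a value above 0. The Integrator median turned to 0.03 at 3 h with the length trend removed and to -0.14 at 5 h with NB replicates 2 and 3 only. The summed neuron markers in GMCs of 5 h stood at 5185 to 5322 CPM, against 363 to 651 CPM in NBs of 5 h, and their part in the 5 h values was not tested.

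**Figure D5:**
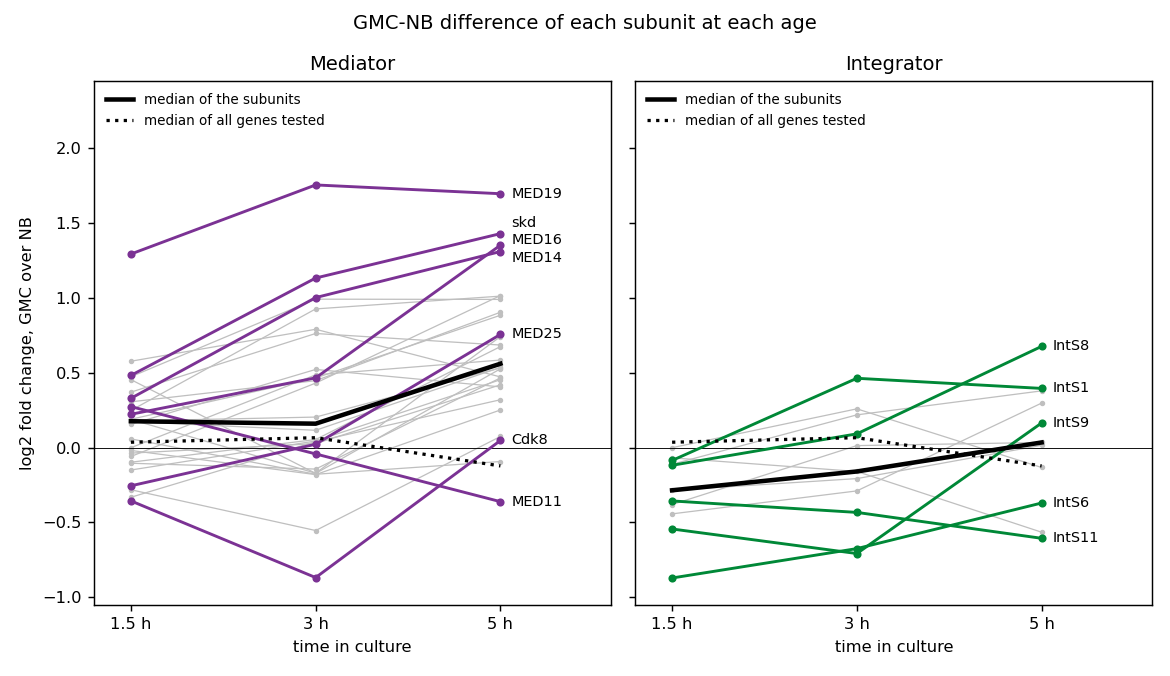
Log2 fold change of GMCs over NBs at 1.5, 3 and 5 h for each Mediator subunit (left) and Integrator subunit (right), with the median of the complex (thick line) and of all genes tested (dotted line). The Mediator median is 0.56 at 5 h beside -0.12 for all genes, and the Integrator median is -0.28 at 1.5 h.

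The change of the GMC-NB difference between ages was tested as an interaction, which compares differences that each lie within a run. Between 1.5 and 5 h it was called for 4 subunits, 10.3% beside 13.2% of all genes (6.59% higher and 6.59% lower), all 4 in Mediator and all towards GMCs. MED16 changed by 1.13 ± 0.323 (SE), MED25 by 1.01 ± 0.2, MED14 by 0.98 ± 0.277 and MED15 by 0.60 ± 0.191 in log2 units (edgeR adjusted p = 0.03, 0.00398, 0.0281 and 0.0468). MED25, for example, went against the direction of its 5 h value at 1.5 h, where it had 59.7, 68.5 and 59.95 CPM in GMCs and 71.95, 77.5 and 75 CPM in NBs, every GMC library below every NB library, with no call (-0.25, edgeR adjusted p = 0.214). At 5 h it had 59.4 and 59.6 CPM in GMCs and 33.7, 37.9 and 33.9 CPM in NBs, every GMC library above. MED15 likewise had 113, 113 and 112 CPM in GMCs and 114, 133 and 129 CPM in NBs at 1.5 h, also not called (-0.15, edgeR adjusted p = 0.481), and 124 and 143 CPM in GMCs and 92.4, 103 and 97.2 CPM in NBs at 5 h. MED24, skd, IntS8, IntS9 and IntS10 had changes of 1.08, 0.95, 0.79, 0.71 and 0.74 that did not pass (edgeR adjusted p = 0.0523, 0.0764, 0.055, 0.0553 and 0.0545). The count depended on single libraries, and MED25 alone was called in each fit that left out a library. The count was 1 without NB replicate 2 or 3 of 1.5 h or GMC replicate 1 of 1.5 h. It was 2 without GMC replicate 2 of 1.5 h and 9 without NB replicate 2 of 5 h. Calls over all genes moved too, and without NB replicate 1 of 1.5 h there were 3 subunits beside 9.95% of all genes. The counts without single libraries are therefore not a result about the subunits alone. With NB replicates 2 and 3 only the count was 10, beside 20.9% of all genes. Between 1.5 and 3 h 0 subunits and 0% of all genes were called by edgeR. At an unadjusted p under 0.05 by edgeR there was 1 subunit beside 683 of 10913 genes, and DESeq2 called 0 subunits and 32 genes. Scaling without CR43283 moved the median of all genes by -0.17 in this comparison.

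Within each cell type, no subunit was called between 1.5 and 3 h by edgeR, neither in NBs (0 beside 0.101% of all genes) nor in GMCs (0 beside 2.96%). At an unadjusted p under 0.05 by edgeR there were 5 subunits beside 1623 of 10913 genes in NBs. In GMCs there were 2 subunits beside 2234 genes. DESeq2 also called 0 subunits in each, beside 225 genes in NBs and 920 in GMCs. Over all genes the split into higher and lower was 8 and 3 in NBs and 144 and 179 in GMCs, and 11 and 2 in NBs and 129 and 270 in GMCs when scaled without CR43283. That scaling moved the median of all genes by 0.11 in NBs. With NB replicates 2 and 3 only, 3 subunits were called in GMCs, beside 17.8% of all genes. At 5 h against 1.5 h, 10 subunits were called in GMCs, 9 higher and 1 lower (25.6% beside 30.3% of all genes, 17.0% higher and 13.3% lower). MED23 rose by 1.91, IntS1 by 1.52, MED24 by 1.45, kto by 1.40, MED14 by 1.32, skd by 1.10, MED1 by 0.90, IntS6 by 0.88 and IntS9 by 0.78 on the log2 scale, and IntS11 fell by 0.66. Leaving out GMC replicate 2 of 5 h leaves 1 library in that group. The rises of skd, kto, MED1 and IntS6 were then 0.64, 1.29, 0.78 and 0.71, and these subunits were no longer called. With NB replicates 2 and 3 only it was 19, beside 46.9% of all genes. In NBs 2 were called (5.13% beside 11.3%, 7.28% higher). IntS1, the largest Integrator subunit, had 85.5, 213 and 148 CPM in NBs of 5 h and 53.05, 81.1 and 83.6 CPM in NBs of 1.5 h, a rise of 1.04 (edgeR adjusted p = 0.0425), a call lost under 7 alternatives. MED25 fell to 33.7, 37.9 and 33.9 CPM in NBs of 5 h, against 71.95, 77.5 and 75 CPM in NBs of 1.5 h, by 1.09 (edgeR adjusted p = 0.00022). The NB count was 7 with replicates 2 and 3 only (beside 22.9% of all genes) and 5 without replicate 1 of 5 h (beside 21.3%). It was 1 without replicate 3 of 5 h or any NB library of 1.5 h, where all genes called fell too, to 4.23% without replicate 1 of 1.5 h. Comparisons of ages share the 1.5 h libraries, and age and run cannot be told apart in them.

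The authors' deposited table gave like counts. It called 1 subunit higher and 4 lower at 1.5 h (beside 20.9% of all genes with an adjusted p), 5 higher and 4 lower at 3 h (beside 28.0%), and 14 higher and 1 lower at 5 h (beside 34.4%), each of 39 subunits with an adjusted p. For MED19 the authors' deposited table has log2 fold changes of 1.25, 1.63 and 1.65 at 1.5, 3 and 5 h, and for IntS6 it has -0.84, -0.70 and -0.34.

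Per kilobase of exon, levels spanned a wide range among the 39 detected subunits. On the RPKM scale, the mean over all 16 libraries was highest for MED26 at 89.1, with group means of 44.3 to 144. IntS3, IntS11 and MED19 followed at 53.04, 51.3 and 49.8. The lowest levels were those of IntS12 (11.6), Cdk8 (10.6) and IntS14 (8.59). Within the kinase module CycC had 40.4 RPKM, skd 35.02, kto 15.8 and Cdk8 10.6. The group mean of kto was below that of Cdk8 in NBs of 1.5 and 3 h, through replicate 1 alone. In NBs of 1.5 h kto had 5.82, 15.02 and 13.7 RPKM and Cdk8 15.98, 12.1 and 12.4 RPKM, replicate 1 first. In NBs of 3 h kto had 1.89, 8.873 and 11.8 RPKM and Cdk8 15.2, 8.872 and 9.73 RPKM. The group means of kto, MED19 and MED14 varied most, by 4.81, 4.75 and 4.45 times between the lowest and the highest group. The lowest group of kto, NBs of 3 h, includes the replicate 1 value of 1.89 RPKM, so its place in this order depends on that library. Group means of CycC and IntS3 varied least, by 1.26 and 1.32 times. Apart from MED26 and IntS3, neighbours in the order of mean RPKM differ by less than the range of group means of either gene. The subunit genes lie on every large chromosome arm, with 12 of the 29 Mediator genes on 3L. Exon length was 602 to 12307 bases for Mediator (median 1142) and 1184 to 6401 bases for Integrator (median 3293). Over the 39 subunits the mean log2 fold change had a Spearman correlation of 0.18 with exon length, and over 10858 genes one of 0.13. At 1.5, 3 and 5 h it was -0.16, 0.35 and 0.22 over the subunits and 0.02, 0.09 and 0.11 over all genes.

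MED9 (FBgn0260401, 2R 18167255 to 18168380, plus strand), a middle module subunit, could not be measured. All of its 871 exonic bases lie within exons of CG42518 on the same strand, and CG42518 itself had 0 to 17 counts per library and 85 in all. A count of 0 there gives no level of MED9, since a read inside it lies in both genes. The counts hold an entry for ambiguous reads, 1.42% to 2.09% of each library, but the sources used here do not say which reads went there.

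Genes that work beside the complexes were read from lists of other machinery of polymerase II, in the mean of the ages by edgeR, where 21.2% of all genes were higher and 20.5% lower. Of 4 subunits that carry other symbols, omd (Integrator subunit 5) was higher in GMCs (0.72, adjusted p = 0.00256), asun (Integrator subunit 13) was lower (-0.91, adjusted p = 2.55e-06), and defl (Integrator subunit 7) and ix (Mediator subunit 29) did not pass. Of the PP2A core that binds Integrator, mts and Pp2A-29B, 0 of 2 passed. TFIID, which Mediator meets at the promoter, had 6 of 14 subunits higher and 0 lower, led by Taf4 (1.17, adjusted p = 1.41e-05), Taf6 (0.65) and Tbp (0.66), with a median of 0.37. Of 11 tested polymerase II subunits 2 were higher and 0 lower, RpII215, the largest, at 0.62 (adjusted p = 0.00046) and RpII18 at 0.54, with a median of 0.30. NELF and DSIF, the pausing factors that Integrator meets, had 2 of 6 higher and 0 lower, Nelf-A (1.01, adjusted p = 3.82e-05) and Spt5 (0.37), with a median of 0.30. Elongation factors divided, with 4 of 12 higher, among them CycT (0.79) and hyx (0.51), 3 lower, among them Eaf (-0.98, adjusted p = 1.2e-06), and a median of 0.14. Cleavage and polyadenylation factors had 2 of 11 higher, CG3689 (1.02) and CG7185 (0.84), 4 lower, among them Sym (-1.17, adjusted p = 2.37e-06), and a median of 0.01. The median over all genes was 0.00.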

How the data were processed

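RNA primed from poly(A) was sequenced in 16 libraries. Reads per gene were deposited by the authors as whole-number counts, 1 table per library. The authors used, per the submitters' processing notes, HTSeq 0.6.1, DESeq2 1.12.4, TopHat2 2.1.1, BWA 0.7.12 and bedtools 2.26.0, with no role given. The sources used here give no genome build, annotation or strand setting, nor any use of the random octamers in the index primer. The authors' deposited comparison tables hold, per the file headers, log2 fold changes with their errors, a test score and p-values, of which fold changes and adjusted p-values were used. The 5 HTSeq summary entries were left out of library sizes and tests. Among them were 9.20% to 17.7% (no gene), 1.42% to 2.09% (ambiguous) and 21.7% to 33.4% (not unique) of each library's reads.

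The subunits and gene lists were chosen with earlier results of these data known. Counts were fitted with edgeR 4.0.16 (TMM, quasi-likelihood) in R 4.3.3 over 6 groups of cell type and age, after a filter (minimum count 10, total 15) that kept 10913 genes and removed 5451. P-values were adjusted over all genes tested, with a threshold of 0.05, and the scripts were tested on simulated data. CPM used TMM library sizes, and RPKM divides CPM by exon length in kilobases. Coordinates are 1-based, from the BDGP6.54 reference with Ensembl annotation, and the deposited positions of all 40 genes matched it. Values were given in every library for the subunits called in the mean of the ages and for the kinase module, and MED25, MED15, IntS8, IntS1 and MED21 were added after their values were seen. At most 3 genes with the smallest adjusted p were named per list. Alternatives were other scaling (DESeq2 size factors, and TMM without CR43283), DESeq2 1.42.0, no filter, a replicate block, only the groups compared, removal of the trend on exon length (lowess span 0.3), and leaving out each library. Leaving out NB replicate 1 at all ages was added after seeing the data.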

Additional observations from a re-analysis of the deposited data

Results flagged for a closer look

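The GMC-NB difference of 4 Mediator subunits was not the same at 5 h as at 1.5 h by a test of the change itself (edgeR quasi-likelihood test of the interaction, adjusted p under 0.05). The log2 change was 0.98 for MED14, 0.60 for MED15, 1.13 for MED16 and 1.01 for MED25. MED15 and MED25 had lower values in every GMC library than in any NB library at 1.5 h, where neither passed (edgeR adjusted p = 0.481 and 0.214) and 42.6% of all genes did not overlap, and higher values in every GMC library at 5 h, where both passed and 47.9% of all genes did not overlap. The call was lost in 6 of 11 fits that each left out a library for MED14 and for MED16 and in 9 of 11 for MED15, and in none of them for MED25. The summed neuron markers of the GMC libraries lay between 780.4 and 925 CPM at 1.5 h and between 5185 and 5322 CPM at 5 h, and their part in these changes was not tested.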

How the results depend on the processing

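Of 861 recomputed values of called subunits, 755 kept their direction and call, 106 lost the call and 0 reversed. In the mean of the ages, 10 of 13 calls held under every alternative, and MED17, kto and MED24 did not. At 1.5 h (3 subunits called) the count was 5 by DESeq2, 5 with only the groups compared and 8 with NB replicates 2 and 3 only, beside 2428, 3001 and 3037 of all genes (1916 in the report's fit). At 3 h (9) it was 5 with no filter and 4 with only the groups compared, beside 2019 and 1651 genes (2255). In the mean of the ages (13) it was 21 with NB replicates 2 and 3 only, beside 5503 genes (4550). For the change of the difference from 1.5 to 5 h (4) it was 8 with median-ratio scaling, 10 by DESeq2, 9 with scaling without CR43283, 9 with the length trend removed and 10 with NB replicates 2 and 3 only. All genes called moved too, to 1605, 2165, 1573, 1976 and 2236 in these 5 fits, beside 1438 with the settings of the report. In NBs of 5 h against 1.5 h (2) these were 8 by DESeq2, 4, 6 and 7 under the same last 3, beside 1924, 1270, 1494 and 2453 genes (1231). In GMCs of 3 h against 1.5 h (0) it was 2 with only the groups compared and 3 with NB replicates 2 and 3 only, beside 1589 and 1905 genes (323), and in GMCs of 5 h (10) it was 17 and 19, beside 4299 and 5033 genes (3312). The causes were not tested, apart from the fewer libraries that some fits hold.

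Leaving out each library in turn gave 2 to 3 calls at 1.5 h, 3 to 9 at 3 h, 8 to 13 at 5 h and 11 to 18 in the mean of the ages. It gave 0 to 0 and 1 to 9 for the changes of the difference to 3 h and 5 h, 0 to 0 and 1 to 5 in NBs, and 0 to 0 and 6 to 10 in GMCs. Where this left 1 library in a group, that library is assumed to vary like the others. Calls over all genes moved with the library left out too. In NBs of 5 h against 1.5 h they went from 11.3% to 4.23% of all genes without NB replicate 1 of 1.5 h. The ranges are therefore not a result about the subunits alone.

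The deviations of same-numbered GMC and NB libraries had correlations of -0.16 to 0.08, and not every library correlated best with its own number. Deviations from the mean of such small groups are tied to one another, and in groups of 2 they mirror each other. The correlations therefore cannot tell whether the numbers pair the libraries. A replicate block gave 9 subunits for the change to 5 h and 6 in NBs of 5 h, 4 and 11 at 1.5 and 3 h, and 15 in GMCs of 5 h, beside 1863, 1635, 2205, 2570 and 3747 of all genes. Groups of 2 GMC libraries and scarce transcripts such as MED4 limit what could be detected.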

Other observations

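MED26, the subunit on chromosome 4, was low in the NB libraries of replicate 1 together with other genes of that chromosome. The median log2 deviation of 97 genes of chromosome 4 in these libraries was -0.18, -0.43 and -0.38 at 1.5, 3 and 5 h, beside -0.02, -0.08 and -0.06 for genes of other chromosomes. This was not particular to them. The chromosome 4 median was -0.18 in GMC replicate 3 of 1.5 h and -0.17 in GMC replicate 1 of 5 h, and -0.01 to 0.17 in the other GMC libraries. MED26 was lowest of its group in those 2 libraries, at 375 and 273 CPM. A cause was not tested.

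The gene asun, Integrator subunit 13 under another symbol, was lower in GMCs at every age. Its log2 fold change was -1.07, -1.001 and -0.67 at 1.5, 3 and 5 h (edgeR adjusted p = 0.000355, 0.00119 and 0.0104). Of the 39 tested subunits chosen by symbol, none was called lower at all 3 ages.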
